A study of Mus musculus with 6 samples.

Results

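The trypsin-like serine proteases of the mouse testis were examined as a family: acrosin, hepsin and every gene named Prss, Tmprss, Klk or Klk1b with a number. In RefSeq, 84 gene symbols fit this rule; 78 of them had a probe on the array, 85 probes in all, among the 19751 genes and 39429 probes of the whole array. The members were set by a rule on gene names, with earlier results of these data known. Prss3, Prss36, Prss47, Prss51, Prss54 and Prss56 had no probe matched to them.

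Male C57BL/6J mice aged 10 weeks gave the whole testes studied here, from 3 TAp73 knockout and 3 wild type animals, and each mouse had 1 one-colour Agilent array. TAp73 stands for the Trp73 transcripts whose protein, a relative of p53, keeps its transactivation domain. The labels do not describe the knockout allele or say whether the mice shared litters. The p-values below measure the spread between these mice.

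Serine proteases of this family cut proteins after chosen residues through a catalytic triad that includes a serine, and many are made as inactive precursors. In the testis several are made by spermatids and stored in the acrosome, the secretory cap of the sperm head, or carried on the germ cell surface. Tmprss proteins and hepsin are anchored in the membrane, while kallikreins are secreted, and in rodents the tissue kallikrein gene has been copied many times side by side. Some Klk1b copies are known products of Leydig cells, the steroid-making cells between the tubules.

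Every array labelled knockout was lower for the targeted gene. Trp73 probe A_52_P193555 differed by -6.01 on the log2 scale (SE 0.41, adjusted p = 0.00369), A_55_P1988133 by -3.21 and A_52_P410636 by -0.99 (adjusted p = 0.0104). The position of the probes relative to the deleted exons is unknown here. The authors' series value table carries the labels the other way round: each scanner file matched a table column of the opposite label, with correlations of 0.968 to 0.994 over arrays' deviations, against -0.403 to -0.271 for the column of its own label. All directions below follow the scanner files; under the table's own labels the members that passed the test below exchange direction. Between 74.4% and 84.4% of probes were well above background on an array, and between 1.59% and 4.45% were saturated. Knockout replicate 1 stood somewhat apart, with a highest correlation of 0.989 to any other array, where each other array reached at least 0.994 with its closest.

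Signals are given as scaled signal, the processed intensity in percent of that array's 75th percentile, so that 100 is the 75th percentile; levels of different probes were not compared. Differences are knockout minus wild type on the log2 scale. Testing needed a probe to stand well above background on 3 or more of the 6 arrays, and 69 member probes of 64 genes did so. Among them 3 were lower in the knockout at an adjusted p under 0.05 (limma, Benjamini-Hochberg over 31801 probes), or 4.35% of the member probes beside 2.64% of all tested probes. The call in the other direction was made for 1 member probe, 1.45% beside 0.248%. At an unadjusted p under 0.05, 5 member probes were lower and 13 higher, shares of 7.25% and 18.8% beside 10.9% and 12.3% of all tested probes. Groups did not overlap for 5 member probes that were lower and 19 that were higher, shares of 7.25% and 27.5% beside 13.1% and 18.6% of all tested probes. The median difference was 0.10 over the member genes and 0.06 over all tested probes. A count of 3 lower probes among 69 is close to the share over the whole array, and 1 higher probe is too few to compare. The genes that passed the test were Prss35, Prss12, Tmprss13 and Prss43.

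**Figure D1:**
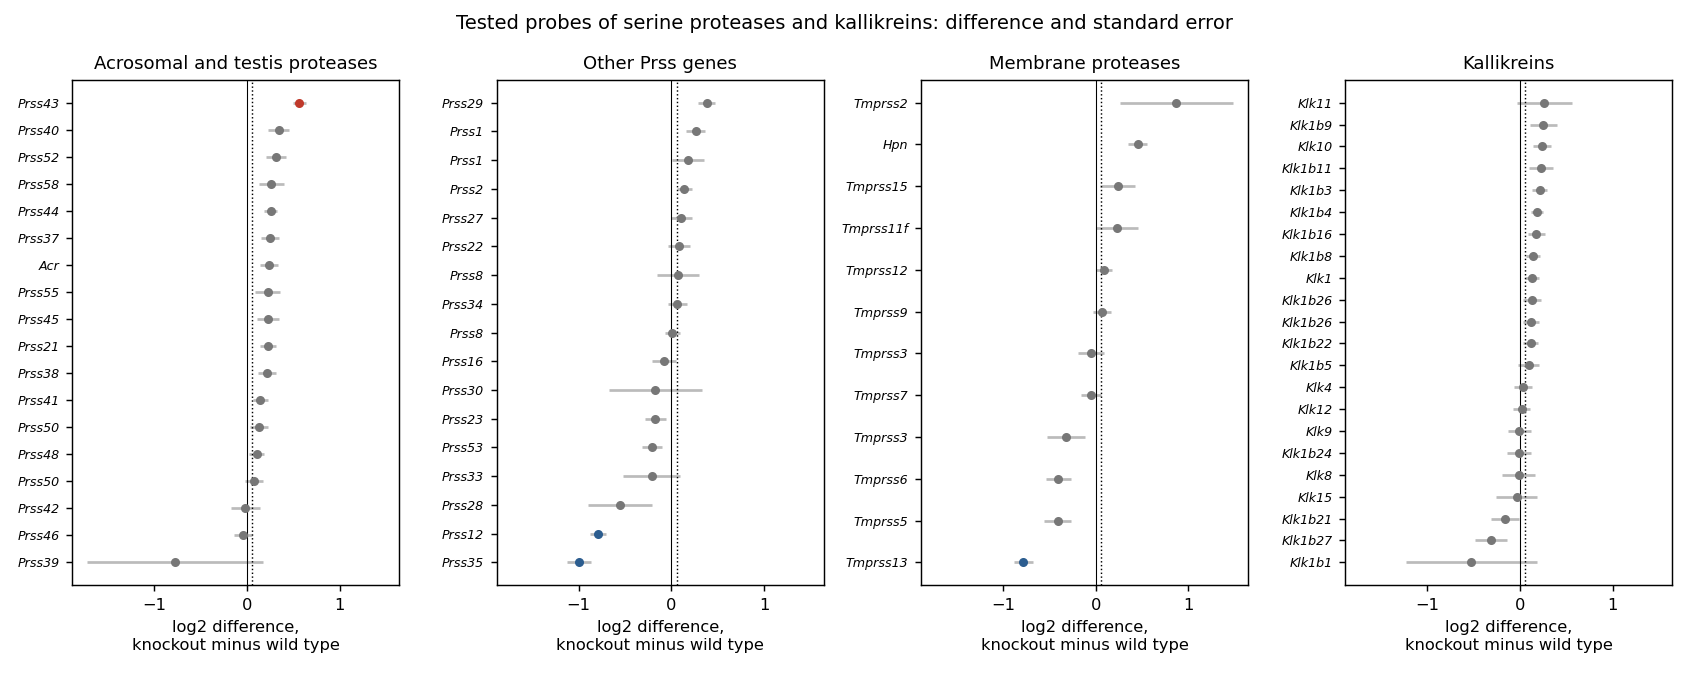
Log2 difference between knockout and wild type (x axis) with its standard error (bars) for each of the 69 tested member probes, 1 row per probe, in 4 groups by name and known role. Blue points passed the test as lower and the red point as higher; the dotted line is the median of all tested probes, 0.06, and Prss35 at -0.999 and Prss43 at 0.56 lie at the ends of the called genes.

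Prss35 encodes a secreted trypsin-like protein in which the usual catalytic serine is replaced. Its probe A_55_P2111985 read 5.30, 4.99 and 5.50 in knockout replicates 1 to 3 and 12.6, 10.0 and 9.23 in the wild types (scaled signal). The groups lay far apart, with means of 5.27 ± 0.26 (SD, n = 3) and 10.6 ± 1.74 (SD, n = 3). The fall of Prss35 was 1.999-fold, a log2 difference of -0.999 (SE 0.13, adjusted p = 0.0188). Within slide 1, which held 2 arrays of each group, the difference was -1.07, and in the pair on slide 2 it was -0.87.

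Prss12 encodes neurotrypsin, a secreted protease that cleaves agrin. Its probe A_51_P477682 read 11.7, 10.4 and 11.6 in the knockouts and 18.8, 18.7 and 20.8 in the wild types (scaled signal). No array of one group came near the other group, and the spread within each was small: 11.2 ± 0.738 and 19.4 ± 1.19 (SD, n = 3 each). Prss12 was 1.73-fold lower (log2 difference -0.79, SE 0.09, adjusted p = 0.0127), and the arrays of slide 1 alone gave -0.84, those of slide 2 -0.70.

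The upstream sequences of these secreted members are shown because they are the members lower in the knockout that have a promoter entry in RefSeq (GRCm38.p6; entries matched 63 of the 78 measured members). Each line gives the 150 bases up to the annotated start, 5′ to 3′; capitals mark the GC box GGGCGG, found on either strand and here in its reverse complement.
Prss35 (chr9:86743483-86743632, + strand): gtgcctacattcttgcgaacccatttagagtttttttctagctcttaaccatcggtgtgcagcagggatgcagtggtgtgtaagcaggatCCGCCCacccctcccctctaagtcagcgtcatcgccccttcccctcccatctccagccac
Prss12 (chr3:123446763-123446912, + strand): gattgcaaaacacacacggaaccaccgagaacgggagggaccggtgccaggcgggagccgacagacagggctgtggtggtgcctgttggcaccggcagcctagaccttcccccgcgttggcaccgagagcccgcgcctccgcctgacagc
The GC box lay in 32.7% of all 32851 windows of 250 upstream bases and in 18.7% of the 75 windows of measured members; Prss35 has 1 match in the stretch shown and Prss12 has none. The degenerate p53 family decamer motif, searched on both strands, lay in 7.13% of all windows. It was in 11 of the 75 windows of members, 14.7%, among them Klk10, Prss23 and Tmprss12, and in neither window above. The cyclic AMP response element TGACGTCA lay in 1.55% of all windows and in 0 of the 75 member windows. A match describes letters in a window and not a bound site.

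The other Prss symbols, trypsins and implantation proteases included, had 15 tested genes with a median difference of -0.08. Of these, 2 passed the test as lower (Prss35 and Prss12) and 0 as higher (limma, adjusted p under 0.05). The 2 were 13.3% beside 3.53% of all genes with 1 probe each, a count too small to compare. At an unadjusted p under 0.05 there were 2 probes each way, 11.8% each beside 10.9% lower and 12.3% higher of all tested probes. Prss29, an implantation serine protease of the uterus, read 0.81, 0.822 and 0.926 in the knockouts and 0.635, 0.706 and 0.627 in the wild types (scaled signal). It was dim, above background on 2 of the 3 wild type arrays, and its difference of 0.38 (SE 0.09) had an adjusted p of 0.0881 in limma's test. Prss1, a pancreatic trypsin, read 5.90, 6.90 and 5.80 against 4.92, 4.96 and 5.62 with its brighter probe (difference 0.26, adjusted p = 0.204). The groups of both genes did not overlap, and neither passed the test. Prss32 and Prss57 were not tested because no probe of theirs was above background on 3 arrays.

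Membrane-anchored members gave 1 call, as lower, among 11 tested genes, 9.09% beside 3.53% of all genes with 1 probe each. A count of 1 is too small to compare. Tmprss13, a mosaic serine protease of epithelia, read 5.43, 4.64 and 4.67 in the knockouts and 7.60, 8.68 and 9.02 in the wild types with probe A_55_P2177998 (scaled signal). The highest knockout stayed below the lowest wild type, with means of 4.91 ± 0.45 and 8.44 ± 0.744 (SD, n = 3 each). Tmprss13 was 1.72-fold lower (log2 difference -0.78, SE 0.11, adjusted p = 0.0211), and by slide it was -0.72 on slide 1 and -0.90 on slide 2. Under normexp background correction its difference was -0.15 (adjusted p = 0.805), and without a filter on dim probes its adjusted p was 0.0515.

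Tmprss6, known as matriptase-2 and a regulator of the iron hormone hepcidin, read 15.4, 20.2 and 19.9 in the knockouts and 21.9, 25.4 and 25.6 in the wild types (scaled signal). Tmprss5, known as spinesin, read 6.78, 7.11 and 5.27 against 8.01, 7.78 and 9.57. For both genes the groups were apart by a narrow margin. Their differences of -0.40 (SE 0.13, adjusted p = 0.16) and -0.41 (SE 0.14, adjusted p = 0.176) did not pass the test. Hpn, encoding hepsin, read 3.56, 3.87 and 4.39 in the knockouts and 2.69, 3.09 and 2.85 in the wild types. All 3 knockouts lay above all 3 wild types, and the difference of 0.45 (SE 0.10) had an adjusted p of 0.0828. Tmprss4 and 6 genes of the Tmprss11 cluster (Tmprss11a to Tmprss11e and Tmprss11g) were not tested; their probes were above background on at most 2 arrays.

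**Figure D2:**
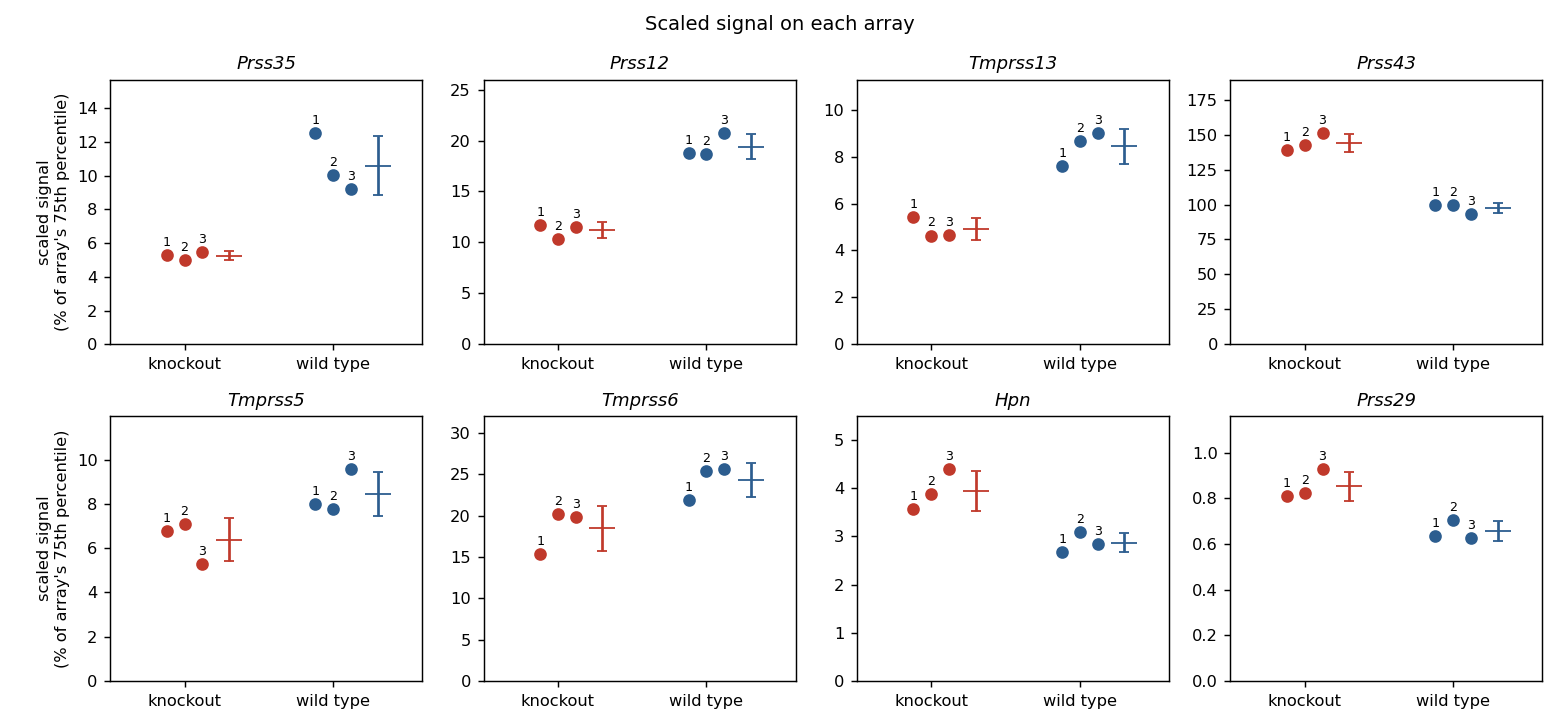
Scaled signal (y axis, percent of the array's 75th percentile, linear from 0) of 8 members on each array, with the replicate number above each point and the group mean ± SD (n = 3) beside it. The upper row holds the 4 members that passed the test, and in the lower row are Tmprss5, Tmprss6, Hpn and Prss29, which did not pass although their groups do not overlap.

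Prss43 was the only member that passed the test as higher. It encodes a testis serine protease of a paralogue cluster on chromosome 9. Probe A_52_P447439 read 139, 142 and 152 in the knockouts and 99.99, 99.57 and 93.03 in the wild types (scaled signal). The wild types lay at the array's 75th percentile and all knockouts well above it, with means of 144 ± 6.43 and 97.5 ± 3.91 (SD, n = 3 each). The rise of Prss43 was 1.48-fold, a log2 difference of 0.56 (SE 0.07, adjusted p = 0.0199), and it was 0.54 on slide 1 and 0.61 on slide 2.

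The calls did not hold in every fit with 1 array left out. Such fits made fewer calls over the whole array, 116 to 420 lower and 7 to 28 higher, in place of 838 and 79. A lost call can thus go with the smaller number of arrays and need not point to a particular array. Prss35 did not pass without knockout replicate 1 (adjusted p = 0.0534), 2 (0.0872) or 3 (0.0812) or wild type replicate 2 (0.0891). Prss12 did not pass without knockout replicate 2 (0.0584) or 3 (0.0616) or wild type replicate 2 (0.0702) or 3 (0.051). Tmprss13 did not pass without knockout replicate 2 (0.0954) or 3 (0.0979) or wild type replicate 2 (0.111) or 3 (0.0788). Prss43 did not pass without knockout replicate 2 (0.0872) or 3 (0.0932) or any wild type replicate, at 0.0548, 0.0995 and 0.0756 without replicates 1 to 3. The sizes moved little: with any 1 array left out, Prss35 ranged from -1.09 to -0.87, Prss12 from -0.82 to -0.74, Tmprss13 from -0.85 to -0.73 and Prss43 from 0.53 to 0.59. Under normexp background correction none of them passed: Prss35 differed by -0.43, Prss12 by -0.47 and Prss43 by 0.54 (adjusted p = 0.537 each), and Tmprss13 as given above. With normexp and quantile normalization Prss12 passed, and Prss35, Prss43 and Tmprss13 had adjusted p-values of 0.0553, 0.0853 and 0.0826. With slide as a block Prss12 passed, and Prss35, Tmprss13 and Prss43 had adjusted p-values of 0.0574, 0.0615 and 0.0523.

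All acrosomal and testis proteases with a probe were tested, 17 genes and 18 probes. Prss51 and Prss54, also of this group, had no probe. Apart from Prss43 no member passed the test. Without adjustment 7 probes were higher at p under 0.05, 38.9% beside 12.3% of all tested probes, and 0 were lower, beside 10.9%. Of the 18 probes, 15 were above 0, or 83.3% beside 59.6% of all tested probes, with a median difference of 0.22. For 9 of them the knockout values lay wholly above the wild types, 50% beside 18.6% of all tested probes. The 7 and the 9 include Acr and Prss37, saturated on 3 and 6 arrays, and the 15 also include Prss55, saturated on 4. Saturation on at least 1 array touched 4 of the 18 probes, beside 1907 of all 31801 tested probes. These shares are thus not like for like. Acr encodes proacrosin, the best known protease of the acrosome. It read 1172, 1370 and 1405 in the knockouts and 1049, 1170 and 1113 in the wild types (scaled signal), so that the lowest knockout was barely above the highest wild type. The difference was 0.24 (SE 0.10, adjusted p = 0.211), and the probe was saturated on 3 of the 6 arrays. For Acr it was 0.015 with quantile normalization and 0.0086 with normexp and quantile normalization (limma, adjusted p = 0.906 and 0.926). With median scaling it was 0.30 and with normexp alone 0.22.

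Of the 18 probes, 4 were saturated on at least 1 array. The 75th percentile was 0.26 higher on the log2 scale in the wild types, so a feature saturated on all arrays reads 0.26 higher in the knockouts. Before scaling, Acr read 60480, 56670 and 61460 intensity units in the knockouts and 59670, 60680 and 60270 in the wild types, which overlap. Prss37, a testis protein needed for sperm to enter the oviduct, was saturated on all 6 arrays and gives no fold. Prss55 was saturated on 4 arrays and Prss39 on 3. With quantile normalization in place of the 75th percentile the median of the 17 genes was 0.15, beside 0.04 for all tested probes. With saturated probes left out it was 0.22 over 13 genes, beside 0.04. With median scaling it was 0.29 beside 0.12, and with normexp and quantile normalization 0.15 beside 0.03. Under normexp background correction alone it was 0.220 beside 0.215, so the group then lay close to all tested probes.

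Other members of this group were measured below saturation. Prss40, an acrosomal protease, read 154, 146 and 126 in the knockouts and 110, 102 and 124 in the wild types (difference 0.34, SE 0.11, adjusted p = 0.161). Prss52 read 789, 914 and 980 against 767, 665 and 728 (0.31, SE 0.11, adjusted p = 0.172). Prss44 read 400, 426 and 440 against 348, 347 and 366 (0.25, SE 0.07, adjusted p = 0.123). In all 3 genes the groups were apart without passing the test. Prss46 and Prss42 differed by -0.05 and -0.02, and Prss21, the membrane-linked testisin of spermatids, by 0.22 (adjusted p = 0.201).

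Prss39, another acrosomal protease, had a value that rested on 1 array. The scaled signal was 159 in knockout replicate 1 but 2058 and 1662 in the other knockouts, against 1406, 1474 and 1322 in the wild types. Its difference was -0.78 (SE 0.95, adjusted p = 0.63) over all arrays, and 0.40 (SE 0.12, adjusted p = 0.116) without knockout replicate 1. Tmprss2 likewise read 6.03 in knockout replicate 3 and 1.04 to 1.42 elsewhere, so that its 0.87 (SE 0.61) became 0.12 without that array. Prss30 read 8.35 in wild type replicate 2 and 2.37 to 4.50 elsewhere; its -0.17 became 0.40 without that array. None of these passed the test with or without the array.

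Along chromosome 9 the members differed in direction. In chromosome order Tmprss13 (-0.78), Tmprss5 (-0.41) and Prss35 (-0.999) came before the paralogue run Prss42 (-0.02), Prss44 (0.25), Prss43 (0.56), Prss45 (0.22), Prss46 (-0.05) and Prss50 (0.08). Within that run Prss43 passed the test and its neighbours Prss44 and Prss45 did not, at adjusted p-values of 0.123 and 0.284. Whether Prss43 differed more than its neighbours was not tested.

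**Figure D3:**
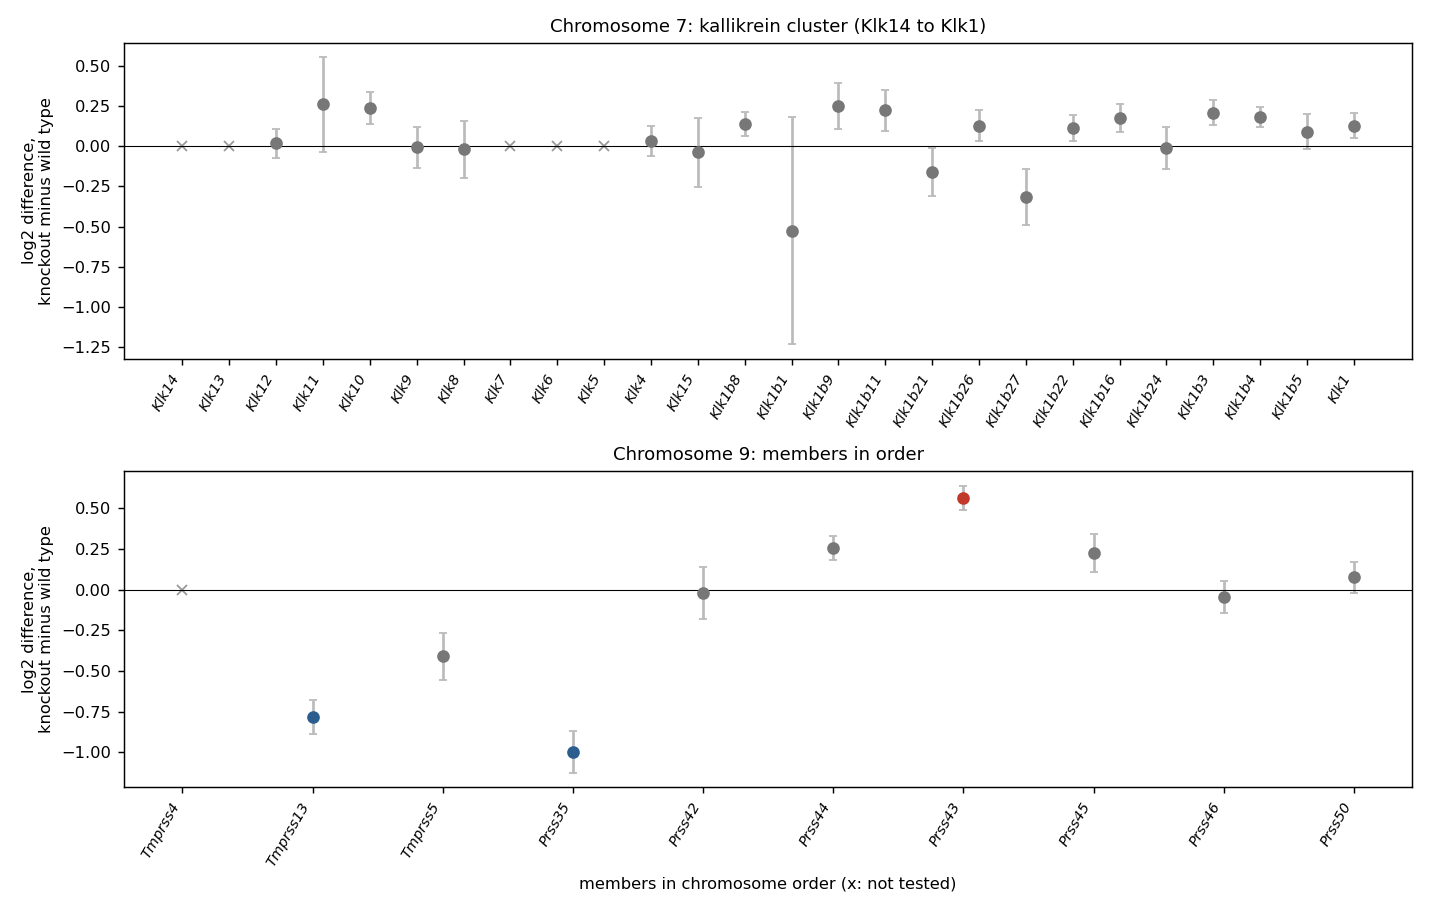
Log2 difference (y axis, with its standard error) of members in chromosome order (x axis, evenly spaced and not to scale) for the kallikreins of chromosome 7 and the members on chromosome 9. Crosses are genes not tested, blue points passed the test as lower and the red point as higher; Klk1b27 at -0.31 and Klk1b21 at -0.16 lie below most Klk1b genes.

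The kallikreins gave no call in either direction among 21 tested genes (limma, adjusted p under 0.05), with a median difference of 0.12. Without adjustment 3 probes were higher at p under 0.05, 13.6% beside 12.3% of all tested probes, and 0 were lower, beside 10.9%. Klk5, Klk6, Klk7, Klk13 and Klk14 were not tested, and their probes were above background on at most 1 array. Klk1b4, the alpha subunit of the nerve growth factor complex, read 538, 531 and 530 in the knockouts and 477, 462 and 470 in the wild types (scaled signal). This tight pair of groups gave a difference of 0.18 (SE 0.06, adjusted p = 0.172). Klk1b3, the gamma subunit, read 861, 791 and 897 against 721, 731 and 750 (0.21, SE 0.08, adjusted p = 0.186). Klk1b16 read 215, 182 and 196 against 170, 172 and 182 (0.18, adjusted p = 0.265), and Klk10 5.09, 4.97 and 4.42 against 4.29, 3.69 and 4.29 (0.24, adjusted p = 0.215). The groups did not overlap for Klk1b4, Klk1b3 and Klk10. For Klk1b16 the lowest knockout and the highest wild type both read 182. Its groups were apart by less than the rounding and were counted as not overlapping.

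The Klk1b genes that Leydig cells are known to make had lower differences than most of the others. Klk1b21 differed by -0.16 (SE 0.15), Klk1b24 by -0.01 (SE 0.13) and Klk1b27 by -0.31 (SE 0.17), where the other Klk1b genes apart from Klk1b1 lay between 0.09 and 0.25. Klk1b27 read 321, 236 and 338 in the knockouts and 327, 432 and 349 in the wild types (scaled signal), and its groups overlapped. In all 3 genes knockout replicate 2 was the lowest knockout and wild type replicate 2 the highest wild type. Knockout replicate 2 was also the lowest knockout for Klk1b3, Klk1b5, Klk1b9, Klk1b11, Klk1b16, Klk1b22 and Klk1b26. Wild type replicate 2 was also the highest wild type for Klk1b1, Klk1b5 and Klk1b11. Klk1b21, Klk1b24 and Klk1b27 were singled out after their values were seen, and none passed the test. The contrast between these 3 and the other Klk1b genes was not tested. Klk1b1, near background, differed by -0.53 with a standard error of 0.71.

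Upstream of the Klk1b genes the sequences are close copies, which is why they are shown. Probes for such paralogues may read more than 1 of them, so values of single Klk1b genes are uncertain. Probe and transcript sequences were not compared here, and likeness upstream does not measure this. Each line gives 120 bases up to the annotated start in RefSeq (GRCm38.p6), 5′ to 3′, with the TATA-like box TTTAAA in capitals.
Klk1b24 (chr7:44188116-44188235, + strand): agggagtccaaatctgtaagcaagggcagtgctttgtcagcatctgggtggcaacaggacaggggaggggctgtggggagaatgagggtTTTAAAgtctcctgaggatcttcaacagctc
Klk1b27 (chr7:44052170-44052289, + strand): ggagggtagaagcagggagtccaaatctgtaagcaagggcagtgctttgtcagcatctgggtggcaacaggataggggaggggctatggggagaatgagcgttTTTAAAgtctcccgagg
Klk1b22 (chr7:44112553-44112672, + strand): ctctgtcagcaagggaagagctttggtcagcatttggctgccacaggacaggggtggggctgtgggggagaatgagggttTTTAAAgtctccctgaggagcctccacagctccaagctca
Klk1b26 (chr7:44012558-44012677, + strand): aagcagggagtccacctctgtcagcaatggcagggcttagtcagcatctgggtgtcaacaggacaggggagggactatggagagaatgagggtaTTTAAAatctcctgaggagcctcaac
Klk1b3 (chr7:44198071-44198190, + strand): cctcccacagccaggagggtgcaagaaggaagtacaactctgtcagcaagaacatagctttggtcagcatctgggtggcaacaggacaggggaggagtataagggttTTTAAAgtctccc
Over the 78 pairs of the 13 measured Klk1b genes, local alignments of the 250 upstream bases spanned 189 to 248 bases with 81.7% to 98.1% identity, median 85.8%. The letters TTTAAA, which read the same on both strands, lay in 12 of these 13 windows and in 12.1% of all windows. The classical TATAAA lay in 0 of them and in 12.4% of all windows. The Klk1b window without TTTAAA was that of Klk1b21. Whether the box bears on the differences was not tested.

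Of 34 listed inhibitors, chaperones and partners of testis serine proteases, 25 were tested, 2 passed as lower and 0 as higher (4 and 5 without adjustment), with a median difference of 0.20. Over all genes with 1 probe each, 3.53% passed as lower and 0.218% as higher (2302 and 2039 of 16947 genes without adjustment), and the median was 0.05. On at least 1 array 9 of the 25 were saturated, beside 1094 of the 16947 genes. Scaling by itself places a feature saturated on all arrays 0.26 higher in the knockouts. Adam2, Adam3 and Spink2, among the 5 higher without adjustment, were saturated on 4, 5 and 5 arrays. Serpina5, a serpin that inhibits acrosin and other proteases, read 297, 322 and 314 in the knockouts and 457, 502 and 540 in the wild types (scaled signal). Its groups were wide apart, a 1.604-fold fall (log2 difference -0.68, SE 0.09, adjusted p = 0.0197). Spink8, a Kazal-type inhibitor, read 8.03, 10.3 and 10.1 against 17.3, 21.0 and 23.1 and was 2.16-fold lower (-1.11, SE 0.15, adjusted p = 0.0206). Leaving out 1 array at a time, the adjusted p ranged from 0.034 to 0.105 for Serpina5 and from 0.0314 to 0.108 for Spink8; under normexp both had 0.537, with -0.72 and -0.69. Neither passed with slide as a block (0.0579 and 0.0575), and Spink8 also did not with normexp and quantile normalization (0.0533) or without a filter on dim probes (0.0507). Acrbp, which binds proacrosin, was saturated on 5 arrays and differed by 0.26 (adjusted p = 0.256). Spink2, the acrosin inhibitor of the acrosome, was also saturated on 5 arrays and differed by 0.25 (adjusted p = 0.203).

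Of 55 other trypsin fold proteases outside the rule, 42 were tested, 4 passed as lower and 0 as higher (8 and 6 without adjustment), beside the same 3.53% and 0.218% of all genes, with a median difference of -0.01. Cfi differed by -1.10 (SE 0.10, adjusted p = 0.0071), Cfb by -1.06 (SE 0.15, adjusted p = 0.0242), C1s1 by -0.87 (SE 0.14, adjusted p = 0.0377) and C1ra by -0.77 (SE 0.08, adjusted p = 0.0104). Cfi cleaves C3b and C4b, Cfb is the protease of the alternative pathway, and C1r and C1s start the classical pathway. Other complement proteases of the list did not pass: C1rl differed by -0.22, Masp2 by -0.48, Masp1 by 0.10 and Cfd by 2.13 (SE 2.14). Without 1 array at a time the adjusted p ranged from 0.0174 to 0.0481 for Cfi, 0.0475 to 0.118 for Cfb, 0.0252 to 0.0698 for C1ra and 0.0534 to 0.151 for C1s1. Under normexp the differences of Cfi and Cfb were -0.44 and -0.30 (adjusted p = 0.544 and 0.628), and C1ra and C1s1 kept -0.71 and -0.84 without passing (0.537 each). With slide as a block Cfi and C1ra passed, and Cfb (0.054) and C1s1 (0.0828) did not. Without a filter on dim probes Cfb (0.0584) and C1s1 (0.0817) did not pass; nor did Cfi (0.0513), Cfb (0.0501) and C1s1 (0.118) with normexp and quantile normalization, or C1s1 with median scaling (0.0547).

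Markers of testis cell types were read beside these results, since in bulk tissue fewer cells of a type and less RNA per cell cannot be told apart. Of 9 Sertoli cell markers 8 were lower, 6 of them at p under 0.05 without adjustment (as were 13.6% of all genes with 1 probe each), with Sox9 passing the test (-0.64, adjusted p = 0.0186). Their summed scaled signal was 2452 to 2814 in the knockouts and 2804 to 3128 in the wild types, and every one was above background on all arrays. Of 5 tested macrophage markers 4 were lower (median -0.33), with sums of 1606 to 2039 against 1509 to 1654. Clu and Aif1, which make up much of these sums, were saturated on 6 and 5 arrays. Leydig cell markers had a median of -0.20 over 6 tested genes, Hsd3b1 passed as lower (-0.76, adjusted p = 0.0369), and Star stood at 0.63 (adjusted p = 0.197). Their sums of 1698 to 2743 and 2226 to 3390 overlapped. Cyp17a1 makes up much of these sums. It read 295 in knockout replicate 1, 1300 in the other knockouts and 658 to 1406 in the wild types. The part of these cell types in the falls of Prss35, Prss12 and Tmprss13, and in the values of Klk1b21, Klk1b24 and Klk1b27, was not tested.

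Germ cell markers are given beside the acrosomal proteases. Median differences were 0.21 for 9 spermatocyte, 0.23 for 9 round spermatid and 0.26 for 8 elongating spermatid markers, and none passed the test (limma; 3, 4 and 2 higher and 0 lower without adjustment). In these lists 1, 4 and 8 markers were saturated on at least 1 array, and since scaling by itself places a marker saturated on all arrays 0.26 higher in the knockouts, the signs of saturated markers are not read here. Summed scaled signals of round spermatid markers were 7875 to 9245 in the knockouts and 7241 to 7807 in the wild types; Acrbp, Spaca1, Tssk1 and Tssk2, which make up much of these sums, were saturated on 5, 4, 2 and 1 arrays. The part of germ cell content, and of the scale, in the median of 0.22 of the acrosomal and testis proteases was not tested. Markers of epididymis and efferent ducts had sums of 44.7 to 51.0 and 43.2 to 50.02 over 5 tested genes and 3 not tested. Most of these sums came from Rnase10, at 37.0 to 44.3 in the knockouts and 35.0 to 41.7 in the wild types. The other tested markers of that list were dim. Peritubular, endothelial, mast cell, spermatogonial and blood markers had medians of 0.10, -0.01, -0.16, -0.12 and -0.43, with no gene of these lists passing the test and at most 1 each way without adjustment.

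**Figure D4:**
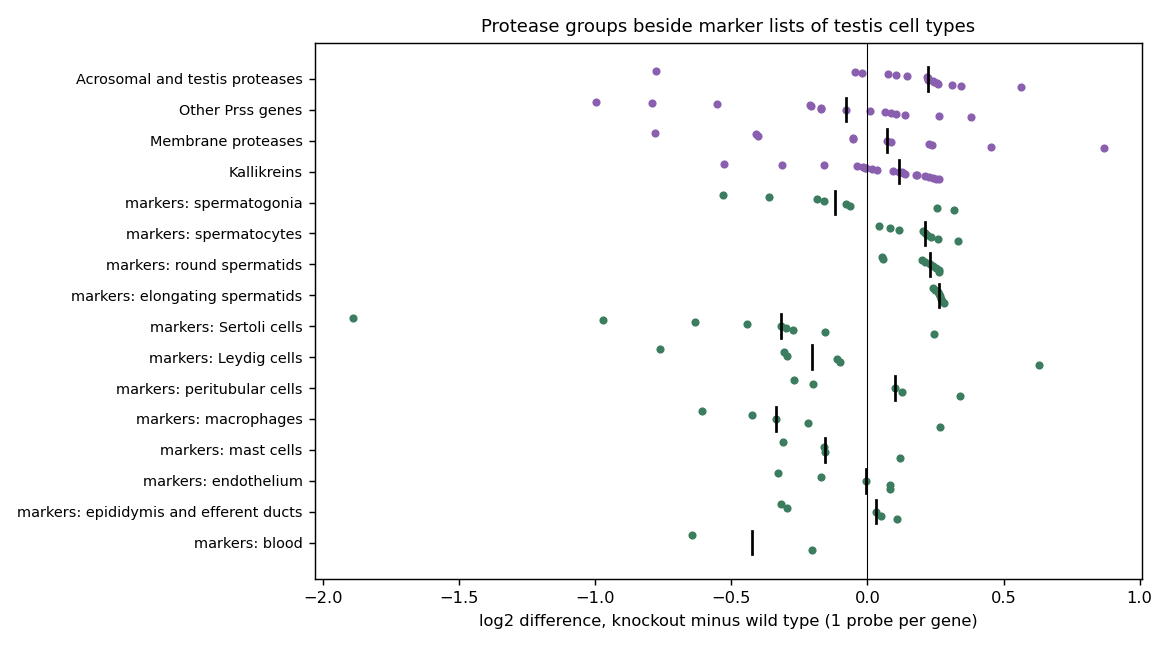
Log2 difference of each tested gene (points, x axis) in the 4 protease groups (purple, 1 probe per gene) and in 12 lists of cell type markers (green), with the median of each as a black bar. The acrosomal and testis proteases have a median of 0.22 and the Sertoli cell markers one of -0.32; all 8 elongating spermatid markers, at a median of 0.26, were saturated on at least 1 array.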

How the data were processed

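RNA of 6 whole testes was hybridised to 1-colour Agilent arrays. Per the file headers, the authors extracted linear spot intensity with Feature Extraction 10.7.3.1; the deposited processed signal, already background-subtracted, was used. The authors' deposited series value table holds linear intensity and no statement of its normalization. The submitters' processing notes name limma.

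Control spots and spots flagged as outliers (163 to 280 per array) were left out and saturated spots kept. Log2 signals were averaged over a probe's spots, then expressed relative to the array's 75th percentile. Tested probes stood well above background on 3 or more of 6 arrays and had 2 values per group. Knockout and wild type were compared in R 4.3.3 by the two-sided moderated test of limma 3.58.1 (lmFit, eBayes, no covariate; adjusted p under 0.05 over 31801 probes), and the fit was tested on simulated data. Probes were named through RefSeq accessions (GRCm38.p6), used for names, order and upstream sequence only; the arrays were designed on mm9. A gene's value is its brightest complete probe. Precision is limited by 3 arrays per group.

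Per-array values are given for called members, Acr, Hpn, the 4 members of smallest p in each group, and members whose groups are apart by 0.3 or more; others named illustrate the measure described. The members, gene lists and tests were chosen with earlier results of these data known. Alternatives were another scaling, quantile normalization, normexp with offset 50 on median signals (no mean signal was used), other filters, slide and replicate blocks, each array left out, and the value table. Same-numbered arrays did not deviate alike from their group means, with correlations of -0.0252, -0.0817 and -0.0899. The main test took the samples as unpaired, and whether the mice were paired is not known.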

Additional observations from a re-analysis of the deposited data

How the results depend on the processing

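The counts of 3 lower and 1 higher member probes were the same under median scaling, quantile normalization, the stricter filter on dim probes, saturated probes left out and outlier spots kept; without a filter they were 2 and 1. They were 0 and 0 with normexp (0 and 1 in limma without adjustment, at p under 0.05), 1 and 0 with normexp and quantile normalization, 1 and 0 with slide as a block, and 0 and 0 within slide 1 (3 and 6 unadjusted). With the replicate block they were 0 and 0 (4 and 8 unadjusted), from 9 and 1 calls over all probes in place of 838 and 79. Leaving out each array gave 0 to 3 lower and 0 to 1 higher. The value table with its own labels gave 1 lower and 3 higher, the same 4 genes with the groups exchanged. The median of member genes, 0.10, was 0.16 with median scaling, which moved the median of all probes to 0.12; it was 0.22 with normexp (all probes 0.22), 0.0512 with normexp and quantile normalization and -0.0695 in the value table, and 0.09 to 0.13 with 1 array left out. Median scaling and quantile normalization moved the share of lower calls among all calls from 91.4% to 79.9% and 80.0%. Normexp called 0 of all probes in either direction. Trp73 probe A_52_P410636 kept its direction, at -0.63 with normexp (adjusted p = 0.537), -0.96 within slide 1 (0.28), -0.99 with the replicate block (0.0927) and -1.09 to -0.94 with 1 array left out, where it did not pass without knockout replicate 2 (0.0566) or 3 (0.0564) or wild type replicate 2 (0.0659). Klk1b4 turned to -0.0167 with normexp and quantile normalization. The causes were not tested. Of 287 values of 17 named members under alternatives, 250 kept direction and side of the threshold, 36 lost the call and 1 turned. Most of the named members had no call to lose, and all 36 lost calls were those of the 4 called genes. Of 17 alternatives each, Prss12 kept its call in 10, Prss35 in 8, Prss43 in 7 and Tmprss13 in 7. Members at or near background and saturated members have values limited by signal.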
